A study of Mus musculus with 4 samples.

Results

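Zfp genes encode zinc finger proteins, named in the mouse by the prefix Zfp and a number, and this account covers those expressed in group 2 innate lymphoid cells (ILC2s). The deposited table held 22083 genes, of which 355 had a Zfp number as symbol after Zfp36, Zfp36l1, Zfp36l2 and Zfp36l3, which belong to a separate family of RNA-binding proteins, were left out. Within this family, the 114 described here were chosen by their level alone: their RPKM was 1 or more in 2 or more of the 4 libraries. The family itself, and the gene lists used below, had been picked with earlier results of these data known. RPKM is the number of reads per kilobase of gene, scaled to the reads of the library, so levels of genes of different length can be set side by side. ILC2s are lymphocytes that reside in tissues and carry no antigen receptor. They had been sorted from the small intestinal lamina propria (SI-ILC2s, 2 libraries) or the white adipose tissue of the mesentery (WAT-ILC2s, 2 libraries) of 9-week-old C57BL/6 mice of wild-type genotype, for which the labels name no treatment. The labels do not state if the 2 libraries from 1 site derive from different mice or pools. Every p-value therefore reflects variation among these 4 libraries alone, and that variation may be technical. The study compared the transcripts of ILC2s at these sites, and differences between the tissues cannot be told apart from differences in how the cells were released from them.

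Most Zfp proteins carry C2H2 zinc fingers, short loops in which a pair of cysteines and a pair of histidines hold a zinc ion and which contact DNA in tandem. Many also carry a KRAB domain, which recruits the corepressor TRIM28 (KAP1), the histone methyltransferase SETDB1 and heterochromatin proteins. KRAB zinc finger genes lie in clusters of duplicated neighbours, and many of their products silence retroelements or imprinted loci. Others act as promoter activators or, without binding DNA, in ribosome assembly, ubiquitination or RNA processing.

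The repeated structure is shown by 2 neighbouring fingers of Zfp52, the member with the largest difference between tissues, read from the coding transcript in GENCODE (GRCm38, chr17:21561209-21561376, plus strand, within 1 coding exon). Beside it stands a finger of Zfp131, the most abundant member with a large difference in the other direction (chr13:119775951-119776034, minus strand, within 1 coding exon). Capitals mark the codons of the cysteines and histidines that bind zinc.
Zfp52 fingers: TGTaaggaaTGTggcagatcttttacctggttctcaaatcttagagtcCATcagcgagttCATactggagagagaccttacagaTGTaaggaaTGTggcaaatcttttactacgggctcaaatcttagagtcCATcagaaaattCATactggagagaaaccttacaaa
Zfp131 finger: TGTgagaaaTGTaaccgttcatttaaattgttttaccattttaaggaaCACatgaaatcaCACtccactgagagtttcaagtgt
A search of the translated coding transcripts for the C2H2 pattern found between 0 and 36 fingers per member, with a median of 8.5. The highest number was that of Zfp142, and 3 fingers or fewer were found in 20 members. A KRAB domain was matched in 49 members and a SCAN domain, a dimerization domain, in 6.

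Zfp genes were expressed at low levels in ILC2s. The mean RPKM over the libraries ranged from 0.89 to 20.8 with a median of 1.92, against a median of 4.13 for all 8230 genes at the same level. Zfp genes with a KRAB match reached the level in 49 of 202 cases (24.3%), those without a match in 65 of 150 (43.3%), and all genes in 37.3%. Just inside the level were Zfp142, Zfp12 and Zfp790, whose second highest values were 1, 1.02 and 1.03 RPKM. Just outside were Zfp961, Zfp617 and Zfp646, at 0.992, 0.989 and 0.986 RPKM. None of the 355 Zfp genes was listed at 0 in all 4 libraries. At the depth given below the lowest estimate for a member in any library was 57 reads, and 5 members had fewer than 100 reads in a library.

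All 14 ILC2 marker genes reached the level, with Gata3 as the most abundant, and their values summed to between 1143 and 1361 RPKM. These sums hide differences in single markers. The limma test described below called 5 of the 14 toward the intestine and 4 toward adipose tissue. Il17rb was at 164 and 141 RPKM in SI-ILC2s, compared with 14.3 and 10.3 in WAT-ILC2s. Il1rl1 was at 65.7 and 63.4 RPKM in WAT-ILC2s, compared with 14.3 and 15.4 in SI-ILC2s. Depth was estimated from the steps between low values of genes with 1 exon, and came to 76610000 and 60100000 reads in SI-ILC2s against 55300000 and 65400000 in WAT-ILC2s. Of the genes that mark other cells, the 6 red cell genes summed to 41.6 and 13.2 RPKM in SI-ILC2s and to 140 and 88.9 in WAT-ILC2s, and 5 of them were higher in WAT-ILC2s. Fibroblast genes summed to 0.462 and 0.532 against 9.88 and 4.48 RPKM. Adipocyte genes summed to 21.9 and 18.9 against 31.9 and 32.5 RPKM, mostly through Pparg, while Adipoq and Plin1, which define adipocytes, stayed at or under 0.167 RPKM. Fabp4 was at 0.257 and 0.172 RPKM in SI-ILC2s, compared with 4.32 and 3.43 in WAT-ILC2s, and both adipocyte genes that were tested, Pparg and Fabp4, were higher in WAT-ILC2s. Endothelial genes summed to 0.865 and 2.62 RPKM in SI-ILC2s and to 3.86 and 6.61 in WAT-ILC2s. Epithelial genes summed to 5.45 and 13.2 against 8.95 and 8.38 RPKM. Krt8 was at 4.32 RPKM in SI-ILC2 replicate 2 and at 0.24 in SI-ILC2 replicate 1. Epcam, at 4.68 and 6.04 against 8.28 and 7.85 RPKM, was higher in WAT-ILC2s. B cell genes summed to 17.7 and 13.4 against 3.14 and 2.61 RPKM through Cd79b, while Ms4a1 stayed at or under 0.0496. T cell genes summed to 8.53 and 6.82 against 23.2 and 12.4 RPKM, mostly through Cd3g. Macrophage and dendritic cell genes summed to 3.89 and 1.83 against 6.2 and 7.84 RPKM, with Lyz2 at 0.633 and 0.331 against 3.53 and 5.5, and NK cell genes to 2.03 and 1.99 against 0.633 and 0.814. The ILC3 list summed to 125 to 240 RPKM, nearly all from Cxcr6. No gene of these lists with a row in the table was at 0 in all libraries. The part of these transcripts in the differences below was not tested, and in bulk RNA fewer cells of a type cannot be told apart from less RNA per cell.

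Between the tissues, SI-ILC2s had the higher level of 24 of the 114 Zfp genes and WAT-ILC2s that of 18, while 72 did not pass the test (limma on log2(RPKM + 1), Benjamini-Hochberg adjusted p below 0.05 over all 8230 genes). In all, 36.8% of the Zfp genes were called, beside 47.5% of all tested genes. The shares by direction were 21.1% and 15.8%, beside 17.9% and 29.6% of all tested genes, so calls toward the intestine came near the background and calls toward adipose tissue stood below it. For 47 Zfp genes each SI-ILC2 library exceeded each WAT-ILC2 library (41.2%, against 29.8% of all tested genes), the reverse was true of 37 (32.5%, against 45.9%), and the libraries overlapped for 30. The median log2 change, SI-ILC2 minus WAT-ILC2, was 0.02 for the Zfp genes and -0.15 for all tested genes. Changes on this scale understate those of genes with low values. The position of zero depends on the scaling: after median-of-ratios scaling the median of all genes moved from -0.15 to 0.00, that of the Zfp genes to 0.15, and the counts became 32 (28.1%, against 23.8% of all tested genes) and 11 (9.65%, against 22.1%), so SI-ILC2s held 74.4% of the calls in place of 57.1%, and after quantile normalization they became 36 and 7, where all tested genes had 1772 and 1886. For all genes this share went from 37.6% to 51.8%. The Zfp median lay above that of all genes by 0.17 in the values as deposited and by 0.15, 0.20 and 0.18 after median-of-ratios scaling, quantile normalization and rescaling to equal sums. Without SI-ILC2 replicate 1 the counts were 18 and 9, and without SI-ILC2 replicate 2 they were 20 and 11.

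**Figure D1:**
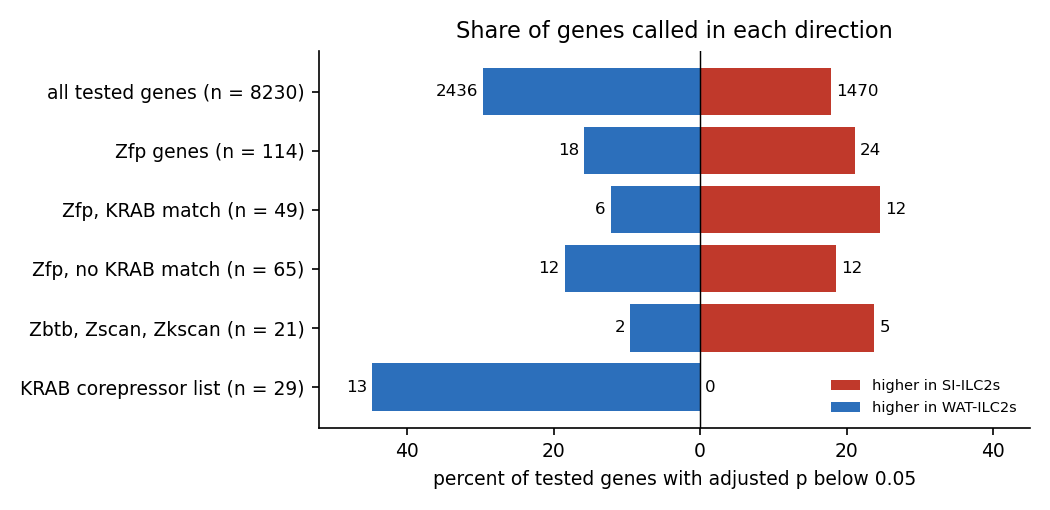
Percent of tested genes with an adjusted p below 0.05 in each set, to the right where SI-ILC2s were higher and to the left where WAT-ILC2s were higher, with the number of genes at the end of each bar. The Zfp genes had 24 calls toward SI-ILC2s and 18 toward WAT-ILC2s, and the KRAB corepressor list had 0 and 13.

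Calls were spread unevenly over the range of expression. Of the 15 Zfp genes with a mean of at least 5 RPKM, 9 were called toward SI-ILC2s, 3 toward WAT-ILC2s and 3 in neither direction. Among all tested genes with a mean of at least 5 RPKM, 21.7% were called toward SI-ILC2s and 28% toward WAT-ILC2s. Of the 62 Zfp genes with a mean under 2 RPKM, 7 were called toward SI-ILC2s and 12 toward WAT-ILC2s, beside 14.2% and 33.3% of all genes in that range. These ranges were chosen after the values were seen. Members that reached 1 RPKM in 1 tissue only had to be high there: 5 passed through SI-ILC2s, of which 3 were called, and 10 passed through WAT-ILC2s, of which 6 were called. The remaining 99 members reached 1 RPKM in at least 1 library of each tissue, with 21 calls toward SI-ILC2s (21.2%) and 12 toward WAT-ILC2s (12.1%). All tested genes had 17.9% and 29.6%, but these were not limited to genes that reached 1 RPKM in both tissues. The shares of all genes under that condition were not computed.

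**Figure D2:**
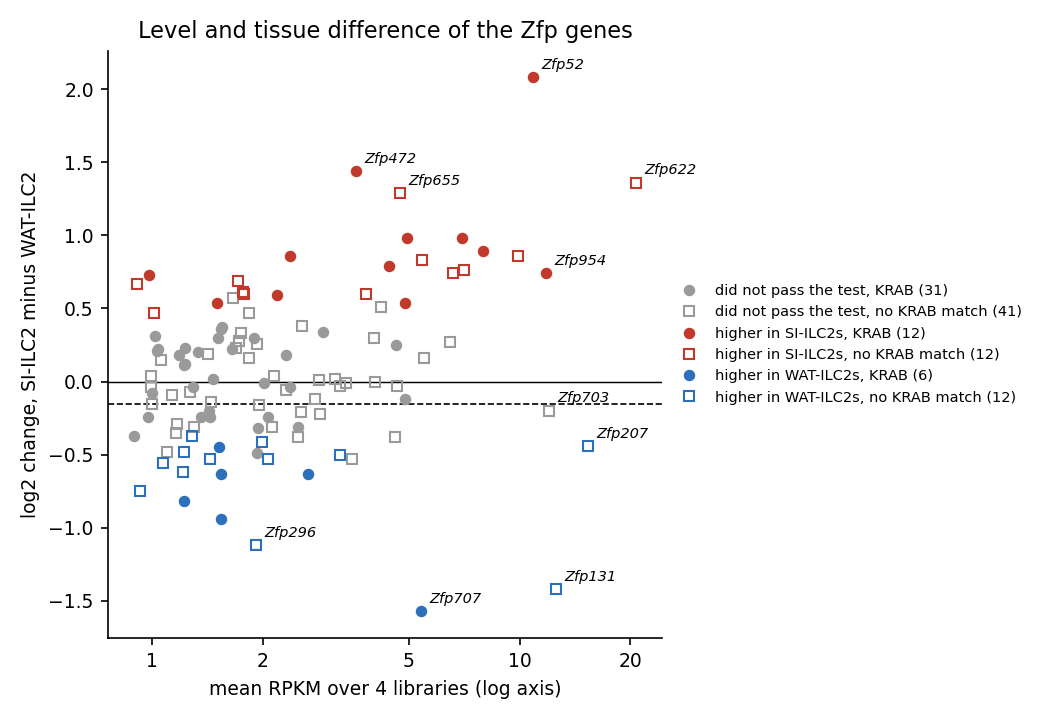
Each point is 1 of 114 Zfp genes, with its mean RPKM over 4 libraries on a log axis and its log2 change, SI-ILC2 minus WAT-ILC2; filled circles have a KRAB match, open squares have none, and the dashed line is the median of all tested genes at -0.15. The most abundant gene, Zfp622, and the gene with the largest change, Zfp52, both lie on the SI-ILC2 side.

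Zfp52, a KRAB gene with 14 fingers on chromosome 17 (21535539 to 21562601), had the largest difference of all members. Its level was 19.5 and 17 RPKM in the SI-ILC2 libraries and 3.76 and 3.31 RPKM in the WAT-ILC2 libraries. The groups did not overlap, and the SI-ILC2 mean was 5.16 times the WAT-ILC2 mean (log2 change 2.08, SE 0.15, limma adjusted p = 3.3e-04). Zfp472, another KRAB gene of chromosome 17 (32965814 to 32979233), was at 6.22 and 5.17 RPKM in SI-ILC2s, compared with 1.6 and 1.32 in WAT-ILC2s. It rose by 1.44 on the log2 scale (SE 0.16, limma adjusted p = 0.0011).

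Zfp622 encodes a cytoplasmic factor of large ribosomal subunit maturation and was the most abundant member. It was at 30.8 and 29.9 RPKM in SI-ILC2s, compared with 11.5 and 10.9 in WAT-ILC2s, a ratio of means of 2.71 (log2 change 1.36, SE 0.13, limma adjusted p = 7.7e-04). Where 2 pairs of values are joined by "against" in what follows, the SI-ILC2 pair comes first unless stated. Zfp655 (chromosome 5, 145231715 to 145247302) was at 7.06 and 7.22 against 2.39 and 2.28 RPKM, with a log2 change of 1.29 and an adjusted p of 0.001 by limma. For these genes the libraries of a tissue lay close together and far from those of the other tissue. Separated libraries were a condition of the rule that named the largest changes, so the separation adds no support to them.

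Next in size toward SI-ILC2s came the neighbouring KRAB genes Zfp868 and Zfp869 on chromosome 8 and the gene Zfp110, which encodes an intracellular partner of the neurotrophin receptor p75. Zfp110 was at 10.4 and 8.81 against 4.03 and 4.68 RPKM (log2 change 0.98). Zfp746, whose product PARIS represses the gene of the coactivator PGC-1alpha, was at 2.94 and 3.76 against 1.23 and 1.56 RPKM (log2 change 0.86). In both genes each SI-ILC2 library was higher than each WAT-ILC2 library. Zfp592, a subunit of a chromatin-reader complex with ZMYND8, was at 11.6 and 14.5 against 6.38 and 7.09 RPKM (log2 change 0.86). Zfp330, which encodes a cysteine-rich nucleolar protein without a match to the C2H2 pattern here, was at 8.62 and 9.62 against 4.6 and 5.37 RPKM (log2 change 0.76). All 4 genes had separated libraries, with adjusted p-values of 0.0037 to 0.0079 by limma. Zfp410 and Zfp777, described below, were the others among the 12 largest changes in this direction, and the call of Zfp777 was lost without SI-ILC2 replicate 2 (log2 change 0.64, limma adjusted p = 0.057).

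**Figure D3:**
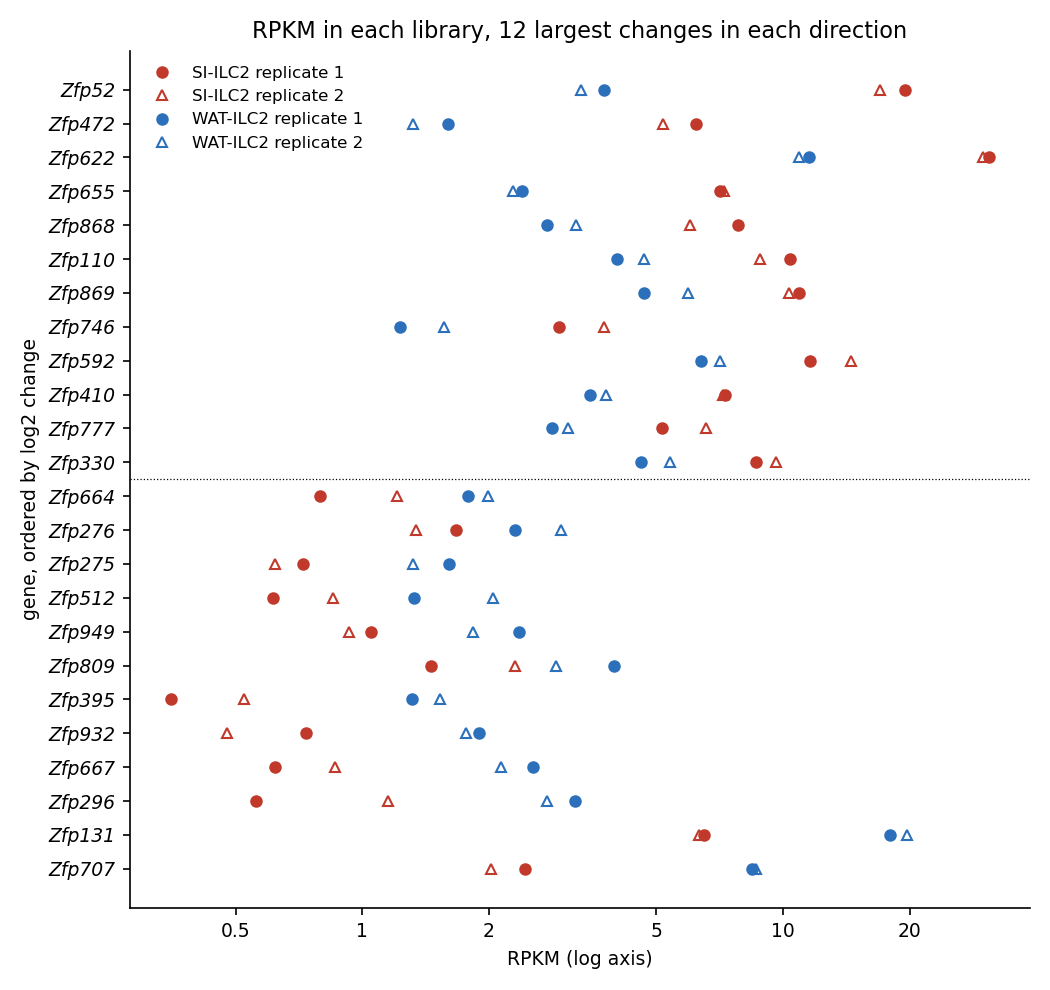
RPKM in each of the 4 libraries, on a log axis, for the 12 called Zfp genes with the largest change in each direction, SI-ILC2s in red and WAT-ILC2s in blue, ordered by log2 change. Above the dotted line every SI-ILC2 point lies to the right of both WAT-ILC2 points, with Zfp52 at the top; below it the order is the reverse, with Zfp707 at the bottom.

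Toward adipose tissue the largest difference was that of Zfp707, a KRAB gene with 7 fingers on chromosome 15 (75969123 to 75975868). It was at 8.45 and 8.6 RPKM in WAT-ILC2s, compared with 2.43 and 2.02 in SI-ILC2s. The WAT-ILC2 mean was 3.83 times the SI-ILC2 mean (log2 change -1.57, SE 0.15, limma adjusted p = 6.8e-04). Zfp131, which encodes a BTB-type zinc finger protein (chromosome 13, 119765187 to 119790889), was at 17.9 and 19.7 RPKM in WAT-ILC2s, compared with 6.47 and 6.3 in SI-ILC2s. This was a ratio of 2.94 (log2 change -1.42, SE 0.14, limma adjusted p = 7.5e-04).

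The next genes toward WAT-ILC2s were expressed at lower levels. Zfp296, whose product acts with KLF4 in reprogramming to pluripotency, was at 3.2 and 2.75 RPKM in WAT-ILC2s, compared with 0.558 and 1.15 in SI-ILC2s (log2 change -1.12), and the lowest of these values corresponded to 87 reads. Its exons overlap those of Gemin7 on the opposite strand, and the strand setting of the counting is not given. Zfp667, a KRAB gene, was at 0.622 and 0.862 against 2.54 and 2.14 RPKM (log2 change -0.94), and Zfp395 was at 0.351 and 0.523 against 1.31 and 1.53 RPKM (log2 change -0.75). Neither reached 1 RPKM in an SI-ILC2 library. Adjusted p-values of the 3 genes were 0.0032 to 0.0044 by limma. Zfp949, Zfp512, Zfp275, Zfp664 and Zfp276 had changes of -0.63 to -0.53 with adjusted p-values of 0.013 to 0.034 by limma. Of these, Zfp512 and Zfp275 also reached 1 RPKM in WAT-ILC2s only. Each of these 5 calls was lost when 1 library was left out: those of Zfp275 and Zfp949 without SI-ILC2 replicate 2 (adjusted p = 0.057 and 0.058) and that of Zfp664 without SI-ILC2 replicate 1 (0.16). The call of Zfp512 was lost without WAT-ILC2 replicate 2 or SI-ILC2 replicate 1 (0.063 and 0.094), and that of Zfp276 without WAT-ILC2 replicate 2 or either SI-ILC2 library (0.06 to 0.16). After median-of-ratios scaling the adjusted p of Zfp276 was 0.078.

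Of 7 genes listed for silencing retroelements or imprinted loci, 3 reached the level, and 2 of these were higher in WAT-ILC2s, as were 29.6% of all tested genes. None was higher in SI-ILC2s by limma, with 0 also at an unadjusted p below 0.05. Zfp809, which silences murine leukaemia proviruses, was at 3.97 and 2.89 RPKM in WAT-ILC2s, compared with 1.46 and 2.3 in SI-ILC2s (log2 change -0.63, limma adjusted p = 0.044). Its call was lost without SI-ILC2 replicate 1 (adjusted p = 0.22), without WAT-ILC2 replicate 1 (0.07) and after median-of-ratios scaling (adjusted p = 0.083). Zfp932, a repressor of endogenous retroviruses, was at 0.737 and 0.477 against 1.89 and 1.76 RPKM (log2 change -0.82, limma adjusted p = 0.0041). It reached 1 RPKM in WAT-ILC2s only, so it had to be high there to be counted among these genes. It shares 45.2% of its transcript's 50-base words with other genes, foremost Gm15446, so its reads may be divided between them. Zfp445, which maintains genomic imprints, was at 1.34 and 1.18 RPKM in SI-ILC2s, compared with 1.51 and 1.68 in WAT-ILC2s (adjusted p = 0.24 by limma). The other 4 genes of this list, among them the imprint regulator Zfp57, were below the level, with no value above 0.546 RPKM.

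Of 10 genes listed for promoter activation and chromatin, 5 reached the level, with 3 calls toward SI-ILC2s and 0 toward WAT-ILC2s by limma (0 also at an unadjusted p below 0.05), beside 17.9% and 29.6% of all tested genes. Beside Zfp592 these were Zfp410 and Zfp384. Zfp410, whose known target is the remodeller gene Chd4, was at 7.27 and 7.21 RPKM in SI-ILC2s, compared with 3.47 and 3.79 in WAT-ILC2s (log2 change 0.83, SE 0.14, limma adjusted p = 0.0044), and its exons overlap those of Gm47484. Chd4 itself was at 3.07 and 7.93 RPKM in SI-ILC2s, compared with 6.83 and 18.5 in WAT-ILC2s, a difference of -1.04 with an SE of 0.50 (limma adjusted p = 0.13), and its libraries overlapped. Zfp384 was at 8.84 and 8.08 against 4.99 and 4.37 RPKM (log2 change 0.74, limma adjusted p = 0.0079), and its call was lost without SI-ILC2 replicate 1 (adjusted p = 0.056). The promoter-binding factor gene Zfp143 stayed just below the level, at 0.873 to 0.98 RPKM in the 4 libraries. Zfp217 and Zfp644 did not pass the test, and the log2 change of Zfp217 ranged from -0.66 to -0.05 with 1 library left out.

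Among 10 genes listed for ribosomes, ubiquitin or RNA, 8 reached the level, with 3 calls toward SI-ILC2s and 1 toward WAT-ILC2s, beside 47.5% of all tested genes called in either direction. Besides Zfp622, the SI-ILC2 side held Zfp451, which encodes a SUMO ligase, at 2.11 and 2.6 against 1.15 and 1.23 RPKM (log2 change 0.61), and Zfp830, a splicing-associated gene, at 5.36 and 4.24 against 3.18 and 2.46 RPKM (log2 change 0.60). Their adjusted p-values were 0.014 and 0.031 by limma. The call of Zfp451 was lost without SI-ILC2 replicate 2 (adjusted p = 0.066), and that of Zfp830 without WAT-ILC2 replicate 2 or SI-ILC2 replicate 1 (0.074 and 0.17) and after rescaling to equal sums (0.054). Zfp207, which encodes the kinetochore protein BuGZ and was the second most abundant member by mean level, was at 18.7 and 17.2 RPKM in WAT-ILC2s, compared with 13.4 and 12.5 in SI-ILC2s. Its log2 change of -0.44 (limma adjusted p = 0.038) did not pass after median-of-ratios scaling (-0.26, adjusted p = 0.18) or without WAT-ILC2 replicate 1 or either SI-ILC2 library (0.13 to 0.21). Zfp598, the ubiquitin ligase of collided ribosomes, was at 1.73 and 1.83 RPKM in SI-ILC2s, compared with 2.8 and 2.12 in WAT-ILC2s (adjusted p = 0.14). The ribosome assembly gene Zfp593, the double-stranded RNA-binding gene Zfp346 and the RNA-binding gene Zfp106 had log2 changes of 0.23 to 0.27 with adjusted p-values of 0.15 to 0.21 by limma. Zfp106 passed after median-of-ratios scaling (log2 change 0.39, adjusted p = 0.049).

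Of 7 genes listed for lymphocytes, 4 reached the level and 0 passed the test by limma, beside 47.5% of all tested genes. At an unadjusted p below 0.05 the count was also 0, and 4 genes are few for such a comparison. Zfp683, which encodes Hobit, a regulator of tissue residency in other lymphocytes, was at 0.0357 and 0.0683 RPKM in SI-ILC2s, compared with 0.0979 and 0.103 in WAT-ILC2s. Zfp91, which encodes a ubiquitin ligase of the noncanonical NF-kappaB pathway, was at 3.13 and 3.26 against 3.55 and 3.03 RPKM. Zfp281, known from pluripotent cells, was at 4.58 and 3.51 against 4.41 and 3.66 RPKM. Both had overlapping libraries, with changes of -0.03 (SE 0.15) and -0.00 (SE 0.17) and adjusted p-values of 0.88 and 0.99 by limma. Zfp335, needed for T cell maturation, was at 1.87 and 3.3 against 2.58 and 3.68 RPKM (adjusted p = 0.48). Zfp148 was at 2.2 and 3.13 RPKM in SI-ILC2s, compared with 3.39 and 5.24 in WAT-ILC2s (log2 change -0.53, limma adjusted p = 0.093). Its log2 change was -0.78 without WAT-ILC2 replicate 1 and -0.27 without WAT-ILC2 replicate 2.

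Of 4 genes known from adipose biology, 1 reached the level, and it did not pass the test, which 47.5% of all tested genes passed. Zfp516, an activator of the brown fat programme, was at 1.75 and 2.22 RPKM in SI-ILC2s, compared with 1.54 and 1.37 in WAT-ILC2s (adjusted p = 0.15 by limma), and passed after quantile normalization (log2 change 0.43, adjusted p = 0.041). Zfp423, a marker of preadipocytes, was at 0.0304 and 0.0854 against 0.0524 and 0.12 RPKM. Zfp521, a brake on adipogenesis, was at 0.0342 and 0.0327 against 0.111 and 0.143 RPKM. Zfp467 was at 0.636 and 0.411 against 0.92 and 0.877 RPKM.

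The smallest changes among members of at least 5 RPKM included those of Zfp703 and Zfp639. Zfp703, the gene of a transcriptional corepressor of the NET family, was at 10.7 and 11.5 RPKM in SI-ILC2s, compared with 13.8 and 12.1 in WAT-ILC2s (log2 change -0.20, SE 0.14, limma adjusted p = 0.28). Zfp639 was at 6.07 and 5.63 against 4.98 and 5.25 RPKM (log2 change 0.16, SE 0.14, adjusted p = 0.36). Neither passed the test, though the libraries of both were separated. The abundant KRAB gene Zfp954 was higher in SI-ILC2s, at 15.8 and 14.2 against 10.1 and 7.25 RPKM (log2 change 0.74, limma adjusted p = 0.018), and its call was lost without SI-ILC2 replicate 1 (adjusted p = 0.085).

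Among the 49 Zfp genes with a KRAB match, 12 were called toward SI-ILC2s (24.5%) and 6 toward WAT-ILC2s (12.2%), with a median log2 change of 0.18. Those without a match had 12 calls in each direction among 65 (18.5% each), with a median of -0.03. All tested genes had 17.9% and 29.6%. After median-of-ratios scaling the counts were 16 and 4 with a KRAB match and 16 and 7 without one. The difference between these classes was not tested. By number of fingers, members with 0 to 3 had 4 and 5 calls of 20, those with 4 to 9 had 14 and 7 of 52, and those with 10 or more had 6 and 6 of 42, toward SI-ILC2s and WAT-ILC2s. Of the 12 members that share at least 20% of their 50-base words with another gene, only Zfp932 was called in the values as deposited, and 2 others were called toward SI-ILC2s after median-of-ratios scaling.

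A list of corepressor and other chromatin genes (the KRAB corepressor list), which includes the KRAB partners Trim28 and Setdb1, gave calls in 1 direction in the values as deposited. Of 35 genes listed, 29 were tested, 13 were called toward WAT-ILC2s (44.8%, against 29.6% of all tested genes) and 0 toward SI-ILC2s (against 17.9%) by limma. At an unadjusted p below 0.05 these numbers were 16 and 1. The median log2 change was -0.44. Hdac1, a histone deacetylase gene, was at 34.5 and 33.7 RPKM in WAT-ILC2s, compared with 13.5 and 13.2 in SI-ILC2s (log2 change -1.29, limma adjusted p = 9.1e-04). The methyl-CpG-binding gene Mbd2 was at 7.42 and 8.93 against 17.5 and 17.9 RPKM, the histone methyltransferase gene Suv39h2 at 0.667 and 0.711 against 2.2 and 2.96, and the maintenance DNA methyltransferase gene Dnmt1 at 0.982 and 1.3 against 2.97 and 2.7. Their adjusted p-values were 0.0024 to 0.0048 by limma. Trim28 was at 41.6 and 38.6 RPKM in SI-ILC2s, compared with 61.4 and 48.9 in WAT-ILC2s, and Setdb1 was at 2.02 and 2.17 against 2.48 and 3.6, and neither passed the test (adjusted p = 0.066 and 0.13 by limma). The counts toward SI-ILC2s and WAT-ILC2s were 1 and 9 after median-of-ratios scaling, and the WAT-ILC2 count was 8 without SI-ILC2 replicate 1.

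Zinc finger families with other names had few expressed members. Of 68 Zbtb, Zscan and Zkscan rows, 21 were tested, with 5 calls toward SI-ILC2s (23.8%, against 17.9% of all tested genes) and 2 toward WAT-ILC2s (9.52%, against 29.6%). After median-of-ratios scaling the counts were 10 and 2, beside 23.8% and 22.1% of all tested genes. Zbtb17, which encodes MIZ1, was at 10 and 12.4 RPKM in SI-ILC2s, compared with 4.68 and 5.55 in WAT-ILC2s (log2 change 1.0), and Zkscan14 was at 3.04 and 2.57 against 0.854 and 0.673 RPKM (log2 change 1.11). Zbtb10 was at 12.4 and 10.1 RPKM in WAT-ILC2s, compared with 5.99 and 5.37 in SI-ILC2s (log2 change -0.87). Their adjusted p-values were 0.0018 to 0.0061 by limma. Zbtb24, Zbtb9 and Zkscan1 were the others on the SI-ILC2 side, and Zbtb46 was the other on the WAT-ILC2 side.

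The members lay on 20 chromosomes, with 21 on chromosome 7 and 15 on chromosome 17. With neighbours joined where their starts lay within 250 kb, 45 members fell into 19 groups, of which 3 held 4 members each. The group on chromosome 17 (21450374 to 21588699) held the KRAB genes Zfp51, Zfp53, Zfp52 and Zfp948 in this order, all on the plus strand. Beside Zfp52, with its 5.16-fold difference, Zfp53 was at 2.59 and 2.04 RPKM in SI-ILC2s, compared with 2.93 and 1.94 in WAT-ILC2s, and its libraries overlapped (log2 change -0.04, SE 0.19, limma adjusted p = 0.88). Zfp948 was at 2.13 and 1.59 against 1.38 and 1.07 RPKM (adjusted p = 0.099) and Zfp51 at 1.35 and 1.28 against 0.984 and 1.11 RPKM (adjusted p = 0.26). Zfp52 was thus the only gene of its group to pass the test in the values as deposited (Zfp948 passed after quantile normalization, adjusted p = 0.041), and the 4 genes differed less in WAT-ILC2s, from 1.05 to 3.53 RPKM on average, than in SI-ILC2s, from 1.32 to 18.3. Exons of Zfp52 overlap 9330136K24Rik on the opposite strand.

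Zfp53, Zfp52 and Zfp948 lie beside each other and differ in how much they varied between the tissues, so their promoter windows are shown together. Each runs from 250 bases before to 50 bases after a start site in RefSeq (GRCm38.p6, plus strand), at chr17:21488738-21489037, chr17:21535289-21535588 and chr17:21566728-21567027. Capitals mark matches on either strand to the CCAAT box (CCAAT) and to the GC box (GGGCGG), 2 common promoter motifs that do not overlap here.
Zfp53: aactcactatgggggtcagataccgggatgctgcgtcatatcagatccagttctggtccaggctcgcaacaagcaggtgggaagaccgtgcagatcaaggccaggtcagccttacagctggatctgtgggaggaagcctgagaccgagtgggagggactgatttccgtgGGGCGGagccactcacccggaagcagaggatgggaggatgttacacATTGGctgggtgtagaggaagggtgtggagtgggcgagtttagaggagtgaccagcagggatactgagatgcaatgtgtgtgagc
Zfp52: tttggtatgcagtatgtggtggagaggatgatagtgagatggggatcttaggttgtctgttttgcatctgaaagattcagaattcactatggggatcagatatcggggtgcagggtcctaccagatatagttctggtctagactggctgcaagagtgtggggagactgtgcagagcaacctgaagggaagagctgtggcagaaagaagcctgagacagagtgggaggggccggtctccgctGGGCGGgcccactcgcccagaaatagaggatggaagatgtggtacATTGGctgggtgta
Zfp948: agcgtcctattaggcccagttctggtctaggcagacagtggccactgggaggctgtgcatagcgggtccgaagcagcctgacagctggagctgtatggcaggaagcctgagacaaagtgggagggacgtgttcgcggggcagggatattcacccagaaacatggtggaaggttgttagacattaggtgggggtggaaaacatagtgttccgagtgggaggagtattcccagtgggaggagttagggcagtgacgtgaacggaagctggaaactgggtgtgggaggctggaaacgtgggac
In a local alignment the windows of Zfp52 and Zfp53 were 74.2% identical over 233 aligned positions, those of Zfp52 and Zfp948 72.3% over 130, and those of Zfp53 and Zfp948 73.2% over 205. Zfp52 and Zfp53 each held 1 match to each motif, and in the window of Zfp948 these letters were not found. The level of Zfp53 did not differ between the tissues beyond its spread, and the part of these motifs in the levels was not tested. CpG dinucleotides numbered 9, 5 and 10 in the windows of Zfp53, Zfp52 and Zfp948.

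On chromosome 6 the group of 4 (47920476 to 48086593) moved in 1 direction where it was called. Zfp212 was at 5.43 and 6.53 against 4 and 3.55 RPKM (log2 change 0.54), Zfp777 at 5.15 and 6.57 against 2.83 and 3.08 (log2 change 0.79) and Zfp746 had a log2 change of 0.86 as given above. Their adjusted p-values were 0.029, 0.0094 and 0.0069 by limma. Zfp956, which lies between Zfp212 and Zfp777, was at 1.68 and 0.999 against 1.47 and 1.64 RPKM, with overlapping libraries (adjusted p = 0.53). The call of Zfp212 was lost without either SI-ILC2 library or WAT-ILC2 replicate 2 (adjusted p-values of 0.06, 0.17 and 0.066) and after rescaling to equal sums (0.076). The windows of the adjacent genes Zfp777 and Zfp746 (GRCm38.p6, minus strand, chr6:48047745-48048044 and chr6:48086544-48086843) are printed in the same way, since these genes moved together and their promoters differ in kind from those on chromosome 17.
Zfp777: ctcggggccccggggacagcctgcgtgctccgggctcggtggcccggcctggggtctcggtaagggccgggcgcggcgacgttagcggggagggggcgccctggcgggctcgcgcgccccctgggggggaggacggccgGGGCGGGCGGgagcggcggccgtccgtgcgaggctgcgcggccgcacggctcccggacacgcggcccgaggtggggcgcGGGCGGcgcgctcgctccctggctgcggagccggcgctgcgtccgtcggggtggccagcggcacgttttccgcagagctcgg
Zfp746: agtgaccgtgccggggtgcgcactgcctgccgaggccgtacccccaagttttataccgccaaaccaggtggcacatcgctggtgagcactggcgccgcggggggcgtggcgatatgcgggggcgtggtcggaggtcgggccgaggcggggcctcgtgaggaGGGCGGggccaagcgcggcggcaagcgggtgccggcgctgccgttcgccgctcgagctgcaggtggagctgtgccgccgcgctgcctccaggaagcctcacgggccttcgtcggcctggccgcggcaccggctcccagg
These windows held 51 and 39 CpG dinucleotides and 3 and 1 GC boxes, with no match to CCAAT. Their GC content was 82.3% and 74.3%, beside 52.3% for Zfp52 and 57.0% for both Zfp53 and Zfp948. They aligned over 21 positions only.

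The group on chromosome 7 (127244274 to 127449158) held Zfp771, Zfp747, Zfp764 and Zfp689, and none passed the test, with log2 changes of -0.49 to 0.30. Zfp747 was at 1.31 and 1.48 RPKM in SI-ILC2s, compared with 1.67 and 3.25 in WAT-ILC2s. Its log2 change was -0.83 without WAT-ILC2 replicate 1 and -0.16 without WAT-ILC2 replicate 2. Zfp764 was at 1.63 and 1.56 against 2.68 and 1.87 RPKM, with a log2 change of -0.15 without WAT-ILC2 replicate 1 and -0.50 without WAT-ILC2 replicate 2. Zfp747 and Zfp764 share 36.9% and 27.6% of their 50-base words with other genes, foremost 9130019O22Rik. Among the 15 groups of 2, both members were called in 3, and in each of these both were higher in SI-ILC2s. They were Zfp868 and Zfp869 on chromosome 8 (69610857 to 69710724), Zfp954 and Zfp772 on chromosome 7 (7114690 to 7209998) and Zfp35 and Zfp191 on chromosome 18, and these pairs were chosen after their values were seen. Without SI-ILC2 replicate 1 the calls of Zfp954 and Zfp35 were lost. Zfp868 was at 7.81 and 6 against 2.74 and 3.22 RPKM and Zfp869 at 10.9 and 10.3 against 4.68 and 5.94 RPKM. Zfp772 reached 1 RPKM in SI-ILC2s only, so it had to be high there to be a member.

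**Figure D4:**
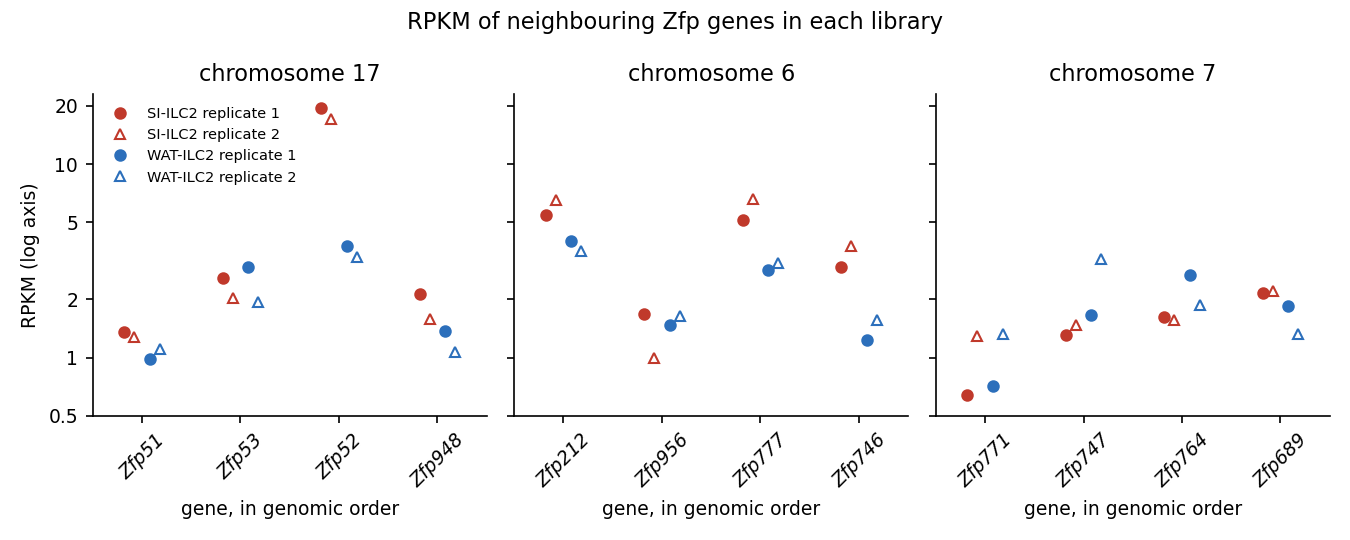
RPKM in each library, on a log axis, for the 3 groups of 4 neighbouring Zfp genes in genomic order, SI-ILC2s in red and WAT-ILC2s in blue. Zfp52 stands apart on chromosome 17 at 19.5 and 17 RPKM in SI-ILC2s. Libraries are separated with SI-ILC2s higher for Zfp51, Zfp52, Zfp948, Zfp212, Zfp777, Zfp746 and, on chromosome 7, Zfp689. They are separated with WAT-ILC2s higher for Zfp747 and Zfp764. Of all tested genes, 29.8% and 45.9% were separated in these directions. Log2 changes on chromosome 7 were -0.49 to 0.30.

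Across all members, RefSeq promoter windows were found for 96 genes (122 windows). GC boxes were present in 58.2% of these windows, against 35.7% of 32851 windows of all genes, CCAAT in 48.4% against 37.4%, and the letters CCGGAAG, an ETS-type site, in 20.5% against 8.86%. TATAAA was found in 5.74% against 13.6%, and TGACGTCA, a cAMP response element, in 4.1% against 1.79%. All letters were searched on both strands. The median number of CpG dinucleotides was 17 against 7. Windows of KRAB genes held CCAAT in 60.8% and GC boxes in 41.2%, and those of members without a KRAB match held them in 39.4% and 70.4%. Between members higher in SI-ILC2s (25 windows) and higher in WAT-ILC2s (23 windows) the shares with a GC box were 72% and 52.2% and those with CCAAT 48% and 52.2%. These shares are descriptions of letters in a window, and all genes here include many that ILC2s do not express.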

How the data were processed

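RNA of sorted ILC2s was sequenced from total RNA with a KAPA library kit, per the labels' protocols, and 4 libraries were used (2 per tissue). The authors deposited RPKM values, 1 column per library. Per the submitters' processing notes, STAR 2.6.0, featureCounts 1.6.0 (Subread) and the build GRCm38 (mm10) were named. No annotation, strand setting or treatment of multi-mapped reads is given there or in the labels. The Zfp genes and the gene lists were chosen with earlier results of these data known.

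Genes with at least 1 RPKM in at least 2 libraries were tested on log2(RPKM + 1) with limma 3.58.1 in R 4.3.3 with a variance trend. Adjustment was by Benjamini-Hochberg over all 8230 genes, with a threshold of 0.05. With 2 libraries a group, the smallest exact two-sided p for a single gene is 0.333, so none was computed. The fit was tested on simulated data. Alternatives were other scalings, pseudocounts of 0.1 and 0.5, other filters, no variance trend, a replicate block and each library left out. A fit with 1 library left out rests on 1 library in a tissue and has its own estimate of the spread. Calls gained or lost there are therefore a rough guide only.

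Reads were estimated from RPKM steps: 83.5% to 84.3% of low values in single-exon genes were whole multiples within 0.1, where chance gives 20%. Over the genes with enough reads (6488 in SI-ILC2s, 6604 in WAT-ILC2s), the variance between replicates averaged 56.3 and 75.0 times the variance that counting gives. Each pair of estimated reads was counted as 1 fragment there, and the ratio depends on that choice. KRAB and SCAN domains were matched with HMMER 3.4 profiles (E-value 1e-04), built from 152 and 30 translated mouse transcripts. Of the 114 genes, 113 matched GENCODE by symbol and 1, Zfp191, by a RefSeq synonym. Shared sequence is the share of a transcript's 50-base words found in other genes. Exons of 32 Zfp genes overlap another gene's on the opposite strand, and those of 9 overlap on the same strand.

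The genes named were, by rule, the 12 with the largest called change in each direction among those with separated libraries, the 10 most abundant, the 6 with the smallest change among those of at least 5 RPKM, the members of the role lists, 3 on each side of the level, and neighbouring groups of at least 4. Libraries overlapped for 0 called Zfp genes. The group on chromosome 7, in which no gene was called, was described after its values were seen.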

Additional observations from a re-analysis of the deposited data

How the results depend on the processing

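In all 13 alternatives 12 Zfp genes kept their call toward SI-ILC2s (Zfp52, Zfp110, Zfp191, Zfp330, Zfp410, Zfp472, Zfp592, Zfp622, Zfp655, Zfp746, Zfp868 and Zfp869) and 5 kept it toward WAT-ILC2s (Zfp131, Zfp296, Zfp667, Zfp707 and Zfp932), and 0 called Zfp genes changed direction. Zfp calls toward WAT-ILC2s numbered 11 after median-of-ratios scaling, 7 after quantile normalization and 8 without a filter on low values, where more genes share the adjustment. Leaving out 1 library gave 18 to 25 Zfp calls toward SI-ILC2s and 9 to 17 toward WAT-ILC2s, 983 to 1595 toward SI-ILC2s and 1492 to 2551 toward WAT-ILC2s over all genes, and 0 to 1 and 8 to 16 for the corepressor list. In these fits the tissue left with 1 library is assumed to vary like the other. For Zfp52, Zfp131 and Zfp622 the adjusted p fell without either WAT-ILC2 library and rose without either SI-ILC2 library, while the log2 changes stayed close. A call gained or lost in such a fit therefore does not show by itself that it rests on 1 library. The other zinc finger families had 10 calls toward SI-ILC2s after median-of-ratios scaling and 9 after quantile normalization, and the corepressor list had 1 after median-of-ratios scaling. Libraries of the same replicate number deviated together (correlation over genes 0.572), and the labels do not say whether a number marks a shared preparation. With a replicate block the calls toward SI-ILC2s and WAT-ILC2s were 37 and 30 for Zfp genes, 10 and 4 for the other families, 1 and 20 for the corepressor list, and 2271 and 3430 for all genes. The block added calls for 8 named genes, with adjusted p-values of 5.5e-04 for Zfp148, 0.0023 for Zfp747, 0.015 for Zfp217, 0.016 for Zfp948, 0.035 for Zfp764, 0.038 for Zfp593, 0.046 for Zfp598 and 0.047 for Zfp689. For Zfp52 the limma adjusted p fell from 3.3e-04 to 1.2e-20 with the block, while its log2 change stayed at 2.08. Within a gene the blocked fit has little left to estimate the spread, so calls gained there are a rough guide only. The sign turned in at least 1 alternative for 27 of the 114 Zfp genes, 14 of them after median-of-ratios scaling and 16 after quantile normalization, and none of the 27 was called in the values as deposited. The 9 named in the text had these log2 changes. After median-of-ratios scaling they were 0.15 for Zfp281, 0.09 for Zfp53, 0.03 for Zfp644, 0.05 for Zfp771, 0.02 for Zfp790 and 0.12 for Zfp91. After quantile normalization they were 0.13 for Zfp281, 0.12 for Zfp53, 0.09 for Zfp644, 0.15 for Zfp771, 0.10 for Zfp790, 0.12 for Zfp91, 0.05 for Zfp142 and 0.02 for Zfp956. With 1 library left out they ranged from -0.16 to 0.15 for Zfp281, -0.51 to 0.07 for Zfp335, -0.25 to 0.17 for Zfp53, -0.20 to 0.05 for Zfp644, -0.28 to 0.20 for Zfp771, -0.25 to 0.10 for Zfp790, -0.12 to 0.06 for Zfp91 and -0.35 to 0.07 for Zfp956. The cause was not tested.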
